A study of Homo sapiens with 12 samples.

Results

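Histone genes of the histone clusters, together with the linker histone genes that lie outside them, were read across MDA-MB-231 cells treated with TNFα, with apigenin, with both or with neither. They were chosen by their names, with earlier results of these data known. A gene entered when the platform table gave its probe set a single symbol of the form H1-, H2AC, H2BC, H3C or H4C with a number. This gave 34 probe sets for 32 genes of 22395 genes with 1 symbol. They were 10 H1 genes, 7 H2A genes, 13 H2B genes, 1 H3 gene and 1 H4 gene. On the array, 40 of 74 histone probe sets carried several symbols, among them those of nearly all H3 and H4 genes, and these are described apart below because they name no single gene. Where a gene had several probe sets, the brightest on average stood for it.

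MDA-MB-231 is an established cell line from a human triple-negative breast cancer, TNFα is an inflammatory cytokine and apigenin is a plant flavone. There were 4 groups of 3 arrays, all read after 24 h. The groups were TNFα (40 ng/ml), apigenin (40 µM), the combination of TNFα (40 ng/ml) and apigenin (40 µM), and untreated cells. Treatments were prepared in the salt solution HBSS, and whether the untreated cells received a vehicle was not stated in the labels. All groups are of 1 line, and the labels do not say whether the 3 samples of a group came from separate cultures. The p-values therefore measure only how these samples varied, and that variation may be technical.

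The core histones H2A, H2B, H3 and H4 form the protein spool around which DNA is wound, and the linker histone H1 binds where the DNA enters and leaves it. The clustered genes are known as replication-dependent: their transcripts accumulate in S phase, lack introns and end in a stem-loop instead of a poly(A) tail. The stem-loop is bound by SLBP, which acts in processing, translation and turnover of these mRNAs. Some clustered genes, among them H2BC5, H2BC12 and H2BC21, are also known to give polyadenylated transcripts from longer 3′ ends, chiefly in cells that have left the cycle. A probe set that reports 1 value per gene does not separate the 2 kinds of transcript.

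Stretches of upstream sequence are shown for 2 head-to-head gene pairs, whose genes share 1 short piece of promoter DNA, and for 2 genes that were higher with apigenin. RefSeq promoters on GRCh38.p14 were matched by gene identifier for 30 of 32 members, all but H1-9P and H2AC12. In the 250 bases before the start, 3 motifs were searched on both strands, none of which contains another: the octamer ATTTGCAT, the box CCAAT and the box TATAAA. The octamer was in 14 of 30 member promoters (46.7%), against 1.7% of all 27305 promoters. CCAAT was in 93.3% of member promoters, against 33.0% of all promoters, and TATAAA was in 66.7%, against 11.1%. By family, the octamer was in 9 of 13 H2B promoters, 5 of 6 H2A promoters and 0 of 9 H1 promoters. Among the 10 genes that passed a pairwise test below (limma adjusted p below 0.05, written here as called) it was in those of H2BC14, H2AC21, H2AC14, H2BC21, H2BC1 and H2BC18, and these letters were not in the windows of H2BC5, H3C13, H1-2 and H1-4. The windows of head-to-head genes overlap, so a match between their starts is counted for both genes. This holds for the octamer of H2AC14 and H2BC14 and for that of H2BC21 and H2AC20. The counts are therefore of promoters and not of separate sites. Each stretch is printed 5′ to 3′, and capitals mark matches to the 3 motifs on either strand.
H2AC14 to H2BC14 (GRCh38.p14, chr6:27814778-27815021, + strand): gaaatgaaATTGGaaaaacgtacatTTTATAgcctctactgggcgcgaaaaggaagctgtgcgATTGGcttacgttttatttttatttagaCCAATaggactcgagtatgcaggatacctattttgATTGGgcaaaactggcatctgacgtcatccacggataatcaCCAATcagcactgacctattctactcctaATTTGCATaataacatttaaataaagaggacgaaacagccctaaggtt
H2BC21 to H2AC20 (GRCh38.p14, chr1:149886683-149886917, + strand): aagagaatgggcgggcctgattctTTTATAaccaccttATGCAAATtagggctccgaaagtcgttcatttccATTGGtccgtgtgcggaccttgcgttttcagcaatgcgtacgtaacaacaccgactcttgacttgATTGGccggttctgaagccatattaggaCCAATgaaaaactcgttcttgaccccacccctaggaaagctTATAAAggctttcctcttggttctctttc
H2BC5 upstream (GRCh38.p14, chr6:26157921-26158120, + strand): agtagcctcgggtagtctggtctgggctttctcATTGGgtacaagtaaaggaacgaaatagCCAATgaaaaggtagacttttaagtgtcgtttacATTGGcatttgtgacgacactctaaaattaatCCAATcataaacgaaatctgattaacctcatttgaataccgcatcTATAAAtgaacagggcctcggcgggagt
H3C13 upstream (GRCh38.p14, chr1:149813694-149813893, - strand): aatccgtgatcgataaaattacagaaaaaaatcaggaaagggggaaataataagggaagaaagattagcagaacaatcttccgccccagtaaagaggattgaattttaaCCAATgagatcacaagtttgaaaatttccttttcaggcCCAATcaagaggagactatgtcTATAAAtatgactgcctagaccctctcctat
The upper pair are whole intervals between the starts of head-to-head genes, read toward H2BC14 and toward H2AC20. The lower pair are the 200 bases before H2BC5 and H3C13, which were higher in every comparison of apigenin-treated cells with cells without it.

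Values are log2 expression per probe set as deposited, and array medians lay between 2.09 and 2.16. Genes were tested if at least 3 arrays placed them at or above that array's 25th percentile, 1.60 to 1.64. This held for 20572 genes and for 28 of the 32 histone genes. The 4 that did not reach it were H1-3 (1.20 to 1.65 over the 12 arrays), the testis linker gene H1-6 (1.32 to 1.75), the pseudogene H1-9P (1.28 to 2.35) and H4C7 (0.95 to 1.40). The cells showed the line's mesenchymal markers VIM (median 8.08), AXL (10.0) and CAV1 (6.77), while ESR1 (2.05), PGR (1.58) and CDH1 (1.95) lay near the array medians or below. KRT8 (3.43) and KRT18 (3.38) were above the array medians, and so were EPCAM (4.91) and GATA3 (4.18), which were listed as low for the line. No leukocyte marker (7 of 10 measured, list means 1.86 to 2.10) and no fibroblast marker (5 of 6, list means 1.91 to 2.10) was called by limma. Over the 6 comparisons, the share of all genes called ran from 0.0535% to 12.5%. At an unadjusted p below 0.05, 1 of the 7 leukocyte markers passed with apigenin against untreated cells, beside 22.5% of all genes. Of 4 endothelial markers measured of 5 listed, KDR was lower in the combination than with TNFα (-1.63, adjusted p = 0.002). In that comparison 10.1% of all genes were called. The endothelial list mean was 2.25 to 2.47 in the combined arrays and 2.80 to 2.81 in the TNFα arrays. The part of KDR in the histone results was not tested.

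Apigenin against untreated cells asked how the flavone alone moved histone transcripts. It raised 5 of the 28 tested histone genes and lowered 3, or 28.6%, where 11.4% of all 20572 genes were called (4.55% higher and 6.83% lower). The 5 that rose were H2BC5, H2BC1, H3C13, H2BC18 and H2AC14, and the 3 that fell were H2BC14, H2AC21 and H1-4. Calls thus went both ways within the H2B genes and within the H2A genes. Those of H2BC5, H2BC14, H2BC1, H3C13 and H2BC18 were kept in all 20 alternatives run. The median change over the 28 was 0.09 on the log2 scale, beside -0.02 over all genes, with 16 positive and 12 negative. The calls are from limma on 12 arrays with Benjamini-Hochberg adjustment over all genes. In bulk RNA, fewer cells in S phase and less histone RNA per cell cannot be told apart.

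**Figure D1:**
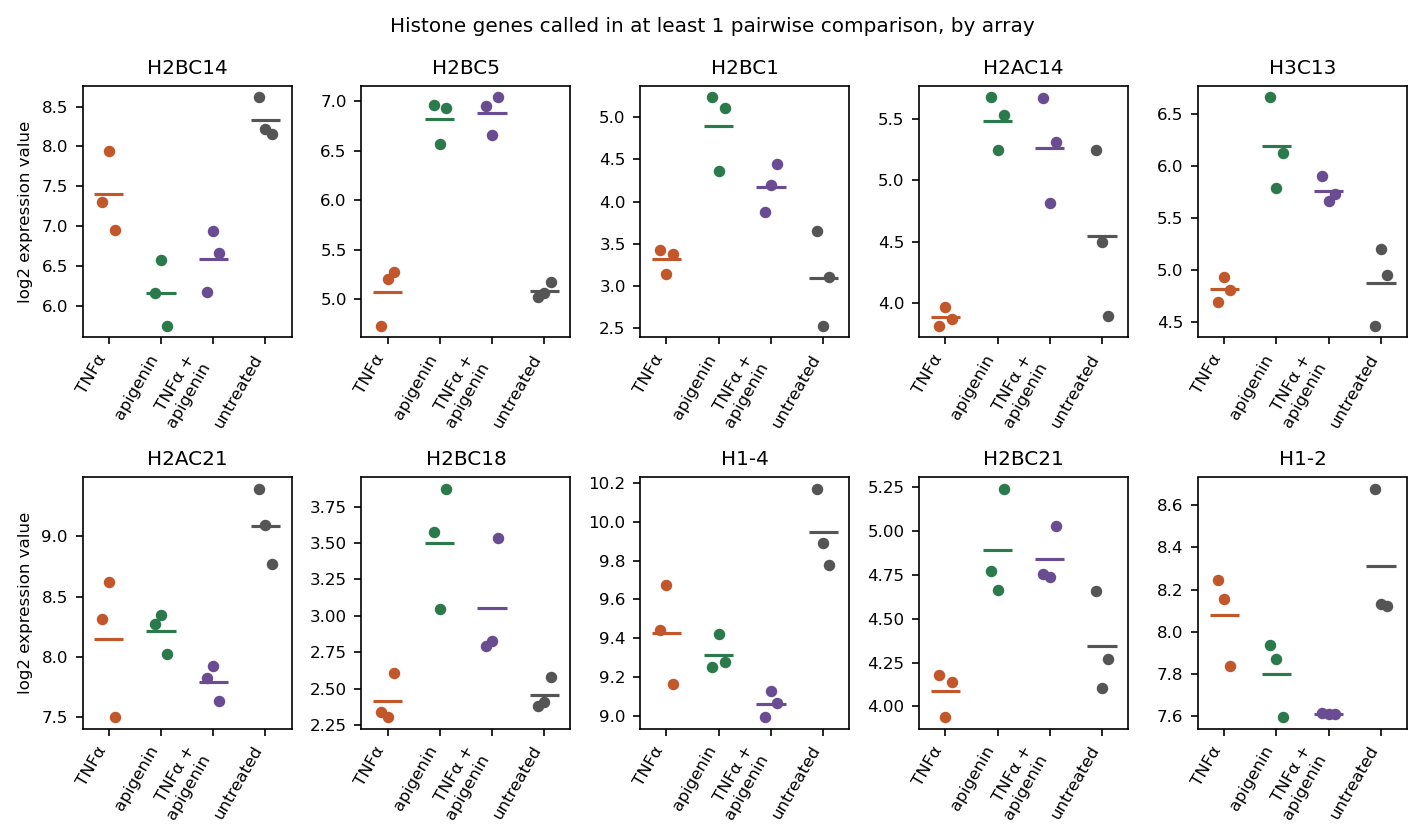
Log2 expression (y axis) of the 10 histone genes called in at least 1 pairwise comparison, by group (x axis), with 1 point per array, 3 arrays per group, and a line at each group mean. H2BC14 lies lower and H2BC5 higher in all 6 arrays with apigenin than in all 6 without it.

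H2BC14 encodes a replication-dependent H2B. Its values were 7.31, 7.94 and 6.95 in the TNFα arrays, 6.17, 6.57 and 5.75 in the apigenin arrays, 6.17, 6.94 and 6.67 in the combined arrays and 8.61, 8.22 and 8.16 in the untreated arrays. All 3 apigenin arrays lay below all 3 untreated arrays, and the mean of the apigenin arrays was 6.17 ± 0.41 against 8.33 ± 0.25 in the untreated arrays (SD, n = 3 each). The gene fell by 2.17 on the log2 scale, a 4.49-fold difference (SE 0.27, limma adjusted p = 0.000181).

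H2BC5 is another H2B gene, with a RefSeq span of 13229 bases against 468 for H2BC14. Its values were 4.73, 5.21 and 5.27 in the TNFα arrays, 6.96, 6.57 and 6.94 in the apigenin arrays, 6.96, 6.66 and 7.04 in the combined arrays and 5.02, 5.07 and 5.18 in the untreated arrays. The 6 arrays with apigenin all lay above the 6 arrays without it. With apigenin alone it rose by 1.73 on the log2 scale (SE 0.16, limma adjusted p = 2.49e-05). RefSeq places the antisense RNA gene H2BC6-AS1 across it, and the labels do not say whether the measurement kept strand.

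H2BC1, known as the testis H2B gene, had values of 3.43, 3.14 and 3.38 in the TNFα arrays, 5.23, 4.36 and 5.10 in the apigenin arrays, 3.88, 4.19 and 4.45 in the combined arrays and 3.66, 2.53 and 3.11 in the untreated arrays. Each apigenin array was above each untreated array, and the gene rose by 1.80 on the log2 scale (SE 0.27, limma adjusted p = 0.000764). It overlaps SLC17A1 on the opposite strand. H2BC18, an H2B gene of chromosome 1, was read from the brightest of 3 probe sets, with 2.34, 2.31 and 2.61 in the TNFα arrays, 3.57, 3.05 and 3.87 in the apigenin arrays, 2.79, 2.83 and 3.54 in the combined arrays and 2.38, 2.41 and 2.58 in the untreated arrays. The apigenin arrays lay above the untreated arrays, and the gene rose by 1.04 on the log2 scale (SE 0.22, limma adjusted p = 0.00649). The other probe sets of H2BC18 gave 0.50 (adjusted p = 0.0354) and 0.41 (adjusted p = 0.27) in a fit of each probe set, so the size depended on the probe set and 1 of the 3 was not called. In RefSeq, H2BC18 overlaps FCGR1A on the opposite strand and the protein-coding gene LOC124904411 on the same strand.

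H3C13 encodes a replication-dependent H3 and was the only H3 gene with a probe set of its own. It had 4.70, 4.94 and 4.82 in the TNFα arrays, 6.66, 5.79 and 6.13 in the apigenin arrays, 5.91, 5.67 and 5.73 in the combined arrays and 4.47, 5.20 and 4.95 in the untreated arrays. The apigenin arrays lay above the untreated arrays without overlap, and H3C13 rose by 1.32 on the log2 scale (SE 0.21, limma adjusted p = 0.00117). A probe set that names H3C13 together with H3C14 and H3C15 gave 0.09 (adjusted p = 0.851) with apigenin against untreated cells and -0.16 (adjusted p = 0.693) in the combination against untreated cells, and was not called.

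Among the H2A genes, H2AC14 and H2AC21 moved in opposite directions with apigenin. H2AC14 had 3.81, 3.96 and 3.87 in the TNFα arrays, 5.67, 5.24 and 5.53 in the apigenin arrays, 5.67, 4.82 and 5.31 in the combined arrays and 5.24, 4.49 and 3.89 in the untreated arrays. The untreated arrays were widely spread, the highest of them equal to the lowest apigenin array at 2 decimals, and the gene rose by 0.94 on the log2 scale (SE 0.28, limma adjusted p = 0.044). That call was kept in 8 of 20 alternatives, among them 3 of the 12 that left out 1 array, with adjusted p between 0.00539 and 0.331. It was kept without untreated replicate 1 and without combined replicate 1 or 2, and lost without any other single array. Without untreated replicate 3 the difference was 0.62 (adjusted p = 0.161), the smallest of these.

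H2AC21 gave 8.31, 8.62 and 7.50 in the TNFα arrays, 8.27, 8.35 and 8.02 in the apigenin arrays, 7.82, 7.92 and 7.63 in the combined arrays and 9.39, 9.09 and 8.77 in the untreated arrays. It was lower in all 3 apigenin arrays than in all untreated arrays, with a difference of -0.87 on the log2 scale (SE 0.24, limma adjusted p = 0.0297). The call was lost without untreated replicate 1 (adjusted p = 0.122) or 2 (0.0681) and without apigenin replicate 1 (0.0733), 2 (0.0536) or 3 (0.104). H2AC20, the H2A gene with the highest mean, had 10.33, 10.21 and 10.07 with apigenin and 10.80, 10.69 and 10.53 without treatment, and its difference of -0.47 (SE 0.16, adjusted p = 0.073) was not called.

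The linker gene H1-4 had the highest mean of the H1 genes. Its values were 9.44, 9.68 and 9.16 in the TNFα arrays, 9.25, 9.42 and 9.28 in the apigenin arrays, 8.99, 9.13 and 9.06 in the combined arrays and 10.17, 9.89 and 9.78 in the untreated arrays. It fell by 0.63 on the log2 scale with apigenin (SE 0.14, limma adjusted p = 0.0112), with no overlap of the groups. The call was lost without untreated replicate 1 (-0.52, adjusted p = 0.0541). H1-2 had 7.94, 7.87 and 7.60 in the apigenin arrays and 8.68, 8.13 and 8.12 in the untreated arrays, a difference of -0.51 (SE 0.16, adjusted p = 0.0621) that was not called.

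H2BC12, the H2B gene with the highest mean, differed by -0.03 (SE 0.13, adjusted p = 0.934) with apigenin, with 9.76, 10.19 and 10.02 in the apigenin arrays and 10.09, 10.03 and 9.95 in the untreated arrays. Apigenin and untreated arrays of H2BC12 overlapped. The H4 gene H4C7 was the only one of its family and lay below the level needed for a test on all 12 arrays. The remaining H2A and H2B genes were uncalled. H2AC6 averaged 7.14 ± 0.19 with apigenin and 6.87 ± 0.16 without treatment (SD, n = 3 each), and H2BC3 had 5.48, 4.59 and 4.58 with apigenin and 5.61, 4.73 and 4.44 without treatment. Over the 12 arrays H2BC17 lay between 4.77 and 5.70, H2BC11 between 2.85 and 3.80, H2BC15 between 2.57 and 3.43, H2BC13 between 2.31 and 3.54 and H2BC26 between 1.99 and 2.79. H2AC1 reached at most 3.65, H2BC9 2.79, H2AC12 2.11 and H2AC25 1.69. Among the H1 genes, H1-10 lay between 4.03 and 5.27, while the oocyte linker gene H1-8 reached at most 2.55, H1-1 2.05 and H1-5 1.91, and the highest value of H1-7 lay between these last. In all, 18 of the 28 tested genes were called in none of the 5 pairwise comparisons, and their differences between apigenin and untreated cells ran from -0.47 to 0.72.

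**Figure D2:**
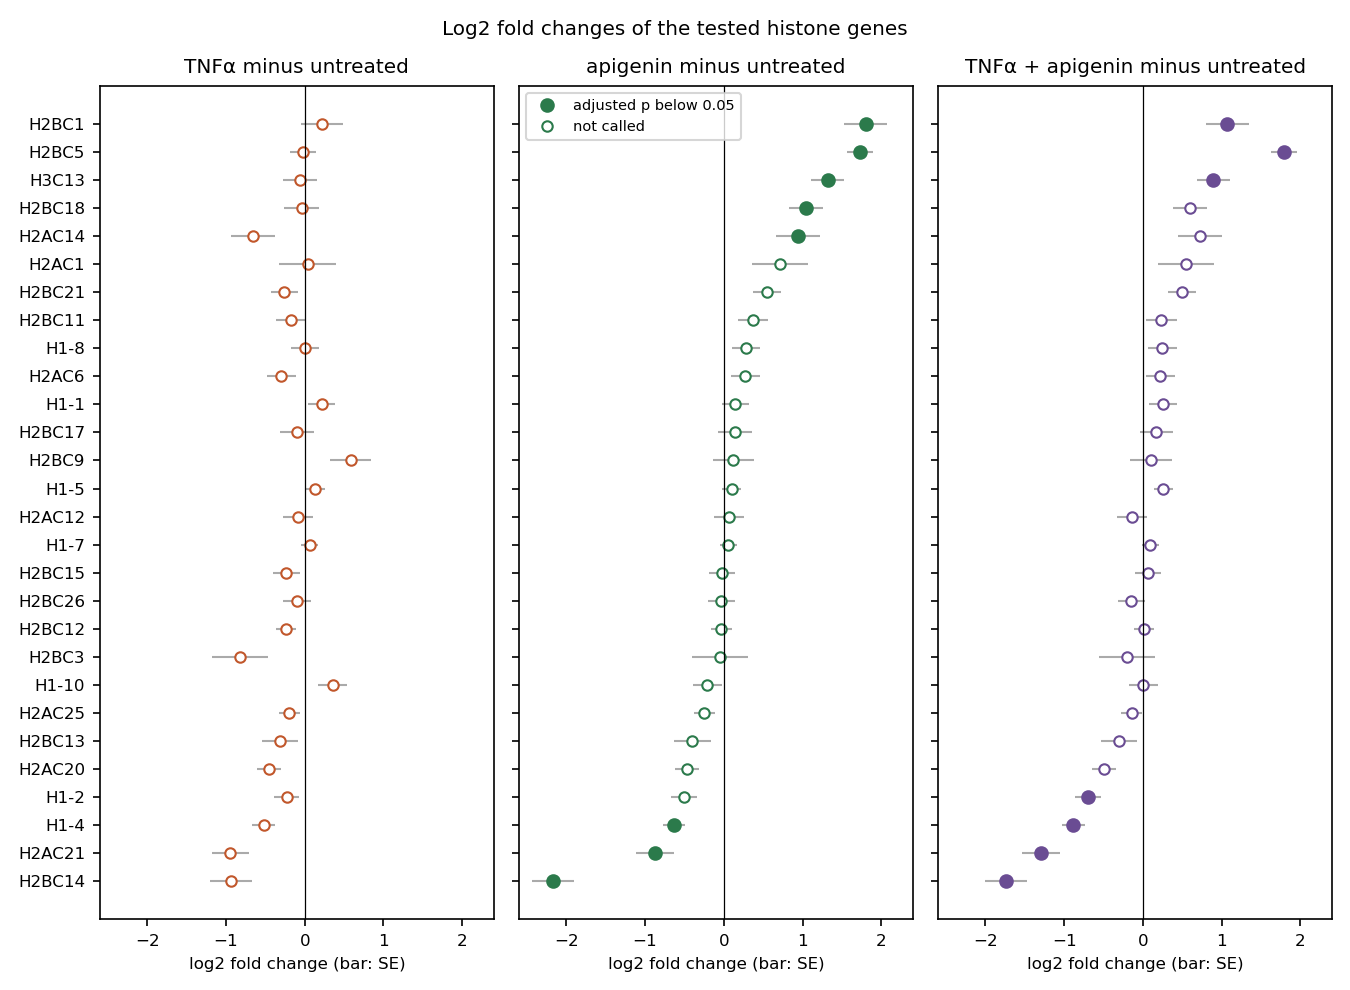
Log2 fold change (x axis) of the 28 tested histone genes (y axis) with TNFα, apigenin and both against untreated cells (1 panel each), filled points for genes called by limma, open points for the others, and bars of 1 standard error. H2BC14 is lowest and H2BC1 and H2BC5 are highest with apigenin against untreated cells.

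Small nucleolar RNAs, which like most histone mRNAs lack a poly(A) tail, were also compared. The median over 194 snoRNA probe sets was 5.26, 6.28 and 4.96 in the TNFα arrays, 6.81, 5.95 and 6.42 in the apigenin arrays, between 5.97 and 6.07 in the combined arrays and 5.89, 5.71 and 5.62 in the untreated arrays. All apigenin and all combined arrays lay above all untreated arrays. With that median as a covariate, 4 histone genes were called higher and 4 lower with apigenin, and 7 of the 8 original calls were shared. The share of all genes called with the covariate is not given here. The H2BC14 difference was then -2.43 on the log2 scale (adjusted p = 0.000798), and H2AC14 was not called (0.71, adjusted p = 0.286). Because the covariate was higher in every array with apigenin than in the untreated arrays, this fit cannot separate the snoRNA shift from the treatment. The part of the snoRNA shift in the results was not tested.

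TNFα against untreated cells asked whether the cytokine alone moved histone transcripts. None of the 28 histone genes was called by limma (0 higher and 0 lower), where 0.997% of all genes were called (0.778% higher and 0.219% lower). At an unadjusted p below 0.05, 7 histone genes passed, 1 higher and 6 lower, beside 11.6% of all genes. Of the 28 differences, 20 were negative and 8 positive, with a median of -0.14 on the log2 scale beside 0.02 over all genes. In 5 genes all TNFα arrays lay below all untreated arrays, and in 0 genes above, where 13.6% of all genes did not overlap in either direction (1073 lower and 1733 higher). H2AC21 was among them with a difference of -0.94 (SE 0.24, adjusted p = 0.0942), H1-4 with -0.52 (SE 0.14, adjusted p = 0.129) and H2BC14 with -0.93 (SE 0.27, adjusted p = 0.145). None of these was called, although their unadjusted p-values were among the 7. Without TNFα replicate 2, H2BC14 was called (-1.20, adjusted p = 0.0397), and 2 histone genes were then called in all, both lower. With the replicate number as a block in limma, H2BC14 was called lower too (adjusted p = 0.0391), among other genes. Trend and robust eBayes called a different histone gene lower. The absence of calls therefore depended on the fit. Shares of all genes called in these fits are not given here.

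Adding apigenin to TNFα, against TNFα alone, raised 4 histone genes and lowered none of the 28, where 10.1% of all genes were called (4.21% higher and 5.92% lower). At an unadjusted p below 0.05, 10 passed in limma, 7 higher and 3 lower, beside 21.8% of all genes. H2BC5 rose by 1.81 on the log2 scale (SE 0.16, limma adjusted p = 2.75e-05) and H2AC14 by 1.38 (SE 0.28, adjusted p = 0.00633). For both genes every combined array lay above every TNFα array. H3C13 rose by 0.95 (SE 0.21, adjusted p = 0.0111); the call was lost without TNFα replicate 1 (adjusted p = 0.0509) or combined replicate 1 (0.0547), without the 4 arrays numbered 3 (0.101) and with the snoRNA covariate (0.0635).

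The fourth was H2BC21, an H2B gene known to give polyadenylated transcripts too. Its values were 4.18, 3.94 and 4.14 in the TNFα arrays, 4.78, 4.66 and 5.24 in the apigenin arrays, 4.75, 4.74 and 5.03 in the combined arrays and 4.66, 4.10 and 4.27 in the untreated arrays. The combined arrays were above the TNFα arrays without overlap, by 0.75 on the log2 scale (SE 0.17, limma adjusted p = 0.014). This call was lost without combined replicate 3 (0.66, adjusted p = 0.0594) and without the 4 arrays numbered 3 (0.69, adjusted p = 0.0687). H2BC14 was lower by a difference of -0.81 (SE 0.27, adjusted p = 0.0758), which was not called. It was called without TNFα replicate 3 (-1.03, adjusted p = 0.0395) and with the replicate number as a block (adjusted p = 0.022). Quantile normalisation gave 4 higher and 1 lower here, and 5 higher and 5 lower for apigenin against untreated cells. The shares of all genes called after that normalisation are not given here.

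TNFα and apigenin together, against apigenin alone, called 0 of the 28 histone genes in limma, where 0.209% of all genes were called (0.209% higher and 0% lower). At an unadjusted p below 0.05, 1 histone gene passed, H2BC1, with a difference of -0.73 (SE 0.27, adjusted p = 0.562), beside 7.24% of all genes. The median difference was -0.05 on the log2 scale, beside 0.03 over all genes. H2BC14 differed by 0.43 (SE 0.27, adjusted p = 0.794) and H2BC5 by 0.06 (SE 0.16, adjusted p = 0.979). The combined and apigenin arrays overlapped for both.

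The combination against untreated cells raised 3 of the 28 histone genes and lowered 4, where 12.5% of all genes were called (7.15% higher and 5.37% lower). This comparison shares the untreated arrays with apigenin against untreated cells, so the values stand side by side without being independent. H2BC5 rose by 1.80 on the log2 scale (SE 0.16, limma adjusted p = 1.71e-05), H2BC1 by 1.07 (SE 0.27, adjusted p = 0.0177) and H3C13 by 0.89 (SE 0.21, adjusted p = 0.0128). H2BC14 fell by 1.74 on the log2 scale (SE 0.27, adjusted p = 0.000741). H2AC21 fell by 1.30 on the log2 scale (SE 0.24, adjusted p = 0.00263) and H1-4 fell by 0.89 (SE 0.14, adjusted p = 0.00112).

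H1-2, a linker gene expressed widely in somatic cells, was the fourth that fell. It had 8.24, 8.16 and 7.84 in the TNFα arrays, 7.94, 7.87 and 7.60 in the apigenin arrays, 7.61, 7.61 and 7.61 in the combined arrays and 8.68, 8.13 and 8.12 in the untreated arrays. The difference between combined and untreated arrays was -0.70 (SE 0.16, adjusted p = 0.0119). These groups did not overlap, and the call was lost without untreated replicate 1 (-0.52, adjusted p = 0.0512). The call of H2BC1 was lost without untreated replicate 2 (0.79, adjusted p = 0.0743), combined replicate 2 (1.06, adjusted p = 0.0528) or combined replicate 3 (0.93, adjusted p = 0.0756). That of H3C13 was lost without untreated replicate 1 (0.69, adjusted p = 0.0614) or combined replicate 1 (0.82, adjusted p = 0.0575). Both calls were lost without the 4 arrays numbered 3. H2AC20 was lower in the combined arrays by a difference of -0.49 (SE 0.16, adjusted p = 0.0534), which was not called.

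The interaction, the response to TNFα with apigenin minus that without it, was called for 0 of the 28 histone genes and for 0.0535% of all genes in limma (0.00972% higher and 0.0437% lower). At an unadjusted p below 0.05, 2 histone genes passed, 1 in each direction, beside 4.23% of all genes. The negative one was H2BC1, at -0.95 (adjusted p = 0.999). H2BC14 was the positive one, at 1.36 (SE 0.38, unadjusted p = 0.00303, adjusted p = 0.923).

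**Figure D3:**
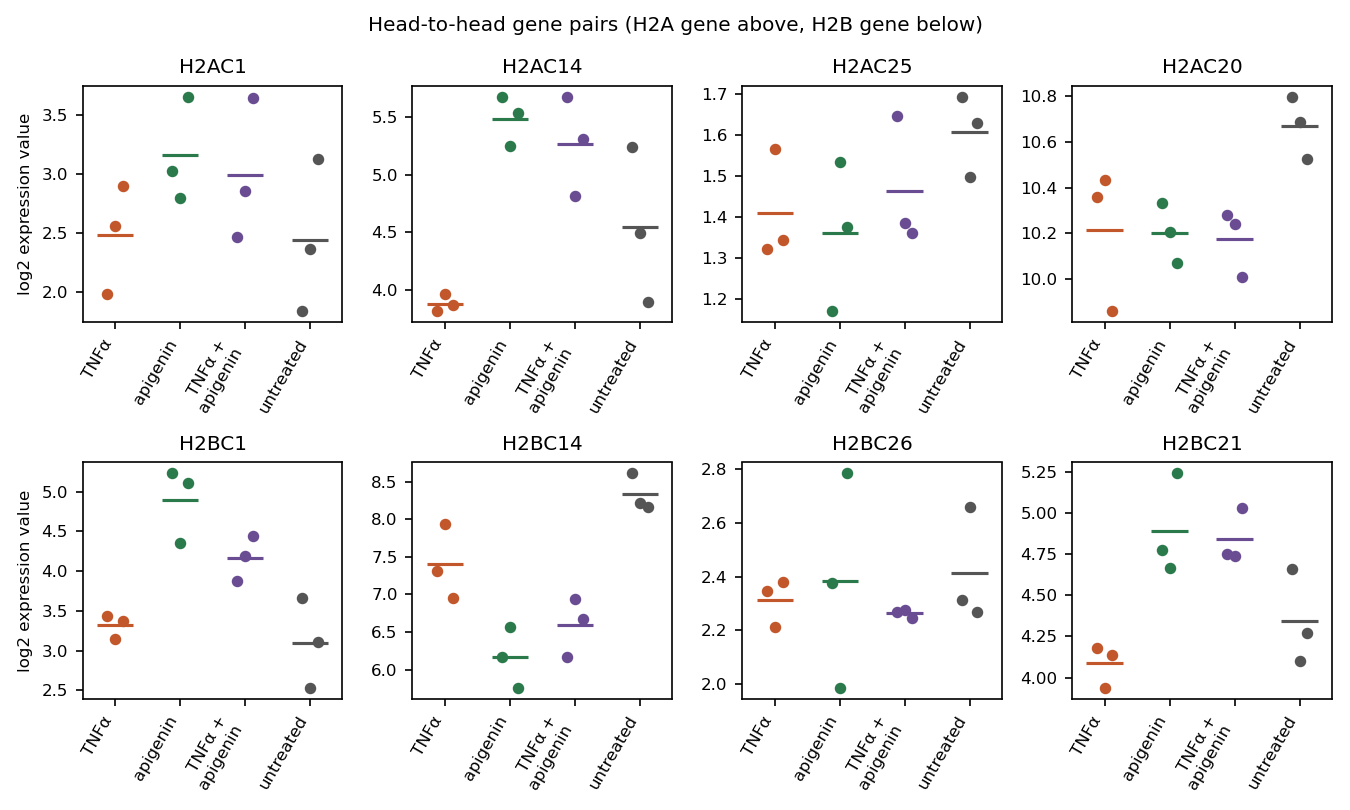
Log2 expression (y axis) of the genes of 4 head-to-head pairs by group (x axis), H2A gene above and H2B gene below, with 1 point per array, 3 per group, and a line at each group mean. In the pair H2AC14 and H2BC14, the apigenin arrays lie at or above the untreated arrays for the H2A gene and below them for the H2B gene.

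In 4 pairs, members start head to head in RefSeq on opposite strands, with 214 bases between the starts of H2AC1 and H2BC1, 244 between H2AC14 and H2BC14, 229 between H2AC25 and H2BC26, and 235 between H2BC21 and H2AC20. The genes of a pair therefore share the stretch printed above for H2AC14 with H2BC14 and for H2BC21 with H2AC20. With apigenin against untreated cells, H2AC14 differed by 0.94 and H2BC14 by -2.17, both called and in opposite directions. H2BC21 differed by 0.55 and H2AC20 by -0.47, neither called. H2BC1 rose by 1.80, while its partner H2AC1 differed by 0.72 (SE 0.36, adjusted p = 0.258) and was not called. For H2AC25 and H2BC26 the differences were -0.25 (SE 0.13, adjusted p = 0.305) and -0.03 (SE 0.17, adjusted p = 0.953). In the combination against TNFα, H2AC14 rose by 1.38 while H2BC14 gave -0.81, and H2BC21 rose by 0.75 while H2AC20 gave -0.04 (SE 0.16, adjusted p = 0.937).

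RefSeq gives 7 of the 28 tested genes a span over 1000 bases, a bound chosen after the values were seen, so it is described and not tested. They are H1-7, H1-8, H1-10, H2BC5, H2BC12, H2BC18 and H2BC21, and the other 21 are shorter. With apigenin against untreated cells, 2 of the 7 rose and 0 fell, with a median of 0.29, against 3 that rose and 3 that fell among the 21, with a median of 0.07. Of all genes, 11.4% were called in that comparison (4.55% higher and 6.83% lower). In the combination against untreated cells, 1 of the 7 rose and 0 fell, against 2 that rose and 4 that fell among the 21, where 12.5% of all genes were called (7.15% higher and 5.37% lower). The 4 genes that fell in these comparisons, H2BC14, H2AC21, H1-4 and H1-2, were all among the 21, which are most of the tested genes. With so few genes, no link of span to direction was drawn.

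**Figure D4:**
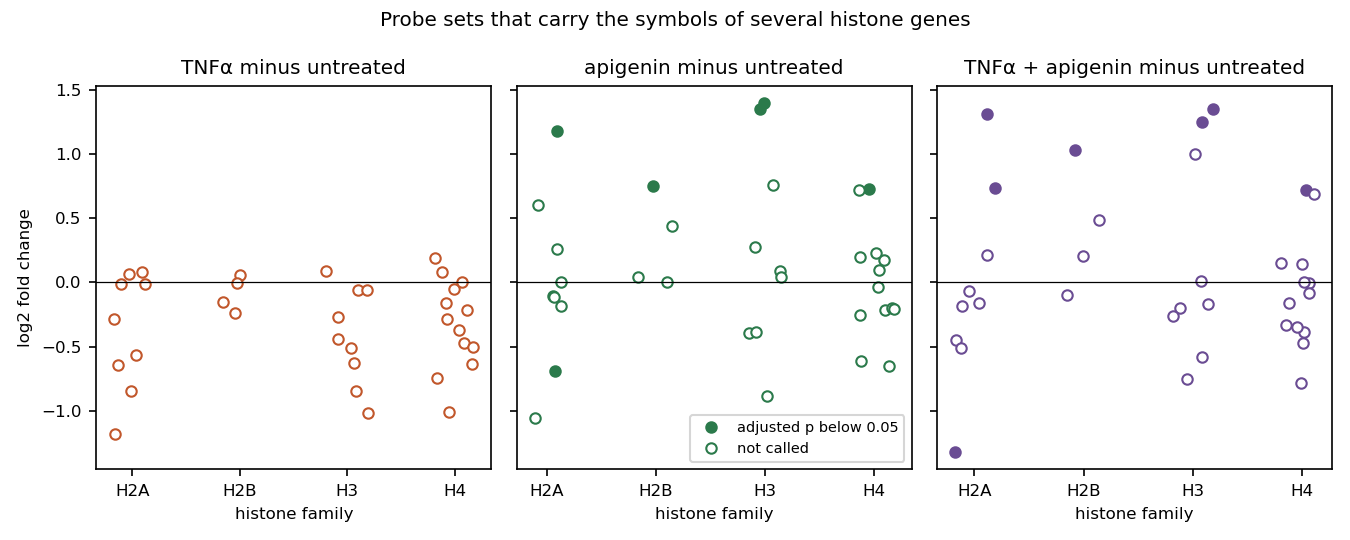
Log2 fold change (y axis) of the 35 tested probe sets with several histone symbols, by family and comparison (x axis), with 1 point per probe set and filled points for those called by limma. The panels set TNFα, apigenin and both against untreated cells. With apigenin the called probe sets lie above 0 except 1 of H2A, and no probe set is filled with TNFα.

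The 40 histone probe sets with several symbols were added after the data had been seen, to show H3 and H4. With identical values counted once there were 38: 13 of H4, 10 of H3, 9 of H2A, 5 of H2B and 1 of H2A and H3. Of these, 35 were tested in a fit of 20607 features. With apigenin against untreated cells 5 rose and 1 fell, where 11.4% of all features were called. Of 9 tested H3 probe sets 2 were called higher and 0 lower, with a median of 0.09 and a range from -0.88 to 1.39. The called H3 probe sets had 10 symbols each and rose by 1.35 (adjusted p = 0.000754) and 1.39 (adjusted p = 0.00212). Of 13 tested H4 probe sets 1 was called higher and 0 lower, with a median of -0.035 and a range from -0.65 to 0.73. The called H4 probe set had 14 symbols and rose by 0.73 (adjusted p = 0.0218). In both families other probe sets with the same symbols were not called. Of 4 tested H2B probe sets (median 0.24) 1 was called, with 5 symbols, and it rose by 0.75 (adjusted p = 0.00911). The H2A probe sets with 6 symbols went both ways, 1.18 (adjusted p = 0.00674) and -0.69 (adjusted p = 0.0374).

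In the combination against TNFα, 8 of the 35 rose and 0 fell, where 10.2% of all features were called, and against untreated cells 6 rose and 1 fell, where 12.5% were called. With TNFα alone 0 of the 35 were called, with a median of -0.27, while 5 were called without TNFα replicate 2. The combination against TNFα gave 4 calls with the snoRNA median as covariate or without the 4 arrays numbered 3. The combination against untreated cells gave 13 with that covariate, and 4 without untreated replicate 1 or combined replicate 3. Shares of all features called in these alternative fits are not given here.

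**Figure D5:**
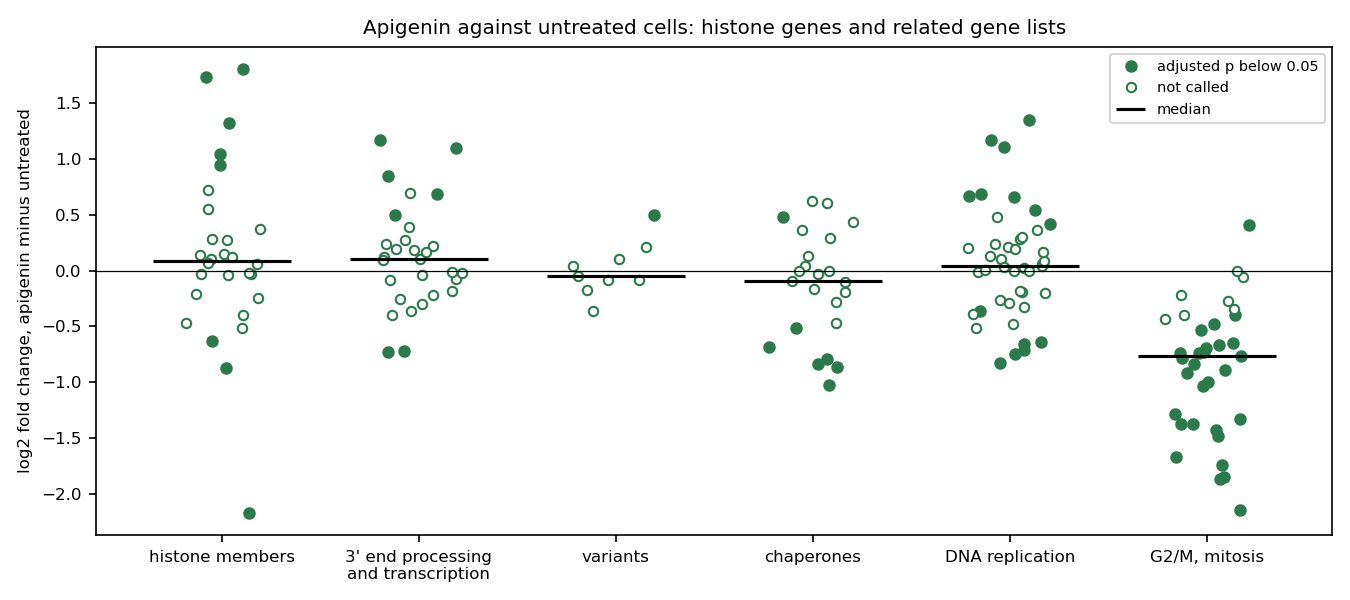
Log2 fold change, apigenin minus untreated (y axis), of the histone genes and of 5 related lists (x axis), with 1 point per gene, filled where called by limma, and a line at each list's median. The G2/M and mitosis list has its median at -0.76, and the other lists have theirs near 0.

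Genes that make and use histone mRNA moved in both directions. Of 29 measured genes of histone mRNA transcription and 3′ end processing, 5 rose and 2 fell with apigenin against untreated cells (median 0.10). In that comparison 11.4% of all genes were called, 4.55% higher and 6.83% lower, which is the background of the other lists below too. SLBP, the stem-loop binding protein, rose by 0.68 (SE 0.12, adjusted p = 0.00222) and CCNE1, the cyclin E whose kinase activates NPAT, by 1.17 (adjusted p = 0.00528). Both are in the S phase list as well. UPF1, a helicase that also acts in histone mRNA decay, rose by 1.09 (adjusted p = 0.00086). CPSF2, a subunit of the cleavage complex, fell by 0.72 on the log2 scale (adjusted p = 0.00157). NPAT, the coactivator of histone genes at their nuclear bodies, differed by 0.12 (adjusted p = 0.699) and was not called. In the combination, 4 rose and 1 fell against TNFα, where 10.1% of all genes were called, and 9 rose and 1 fell against untreated cells, where 12.5% were called.

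Of 43 measured genes of DNA replication and S phase, 8 rose and 6 fell with apigenin (median 0.04), among them the origin subunit ORC6 at 1.35 (adjusted p = 1.43e-05), the flap endonuclease FEN1 at 1.11 (adjusted p = 0.000212) and the polymerase subunit POLE2 at -0.83 (adjusted p = 0.0101). Of 23 chaperone and assembly genes 1 rose and 6 fell (median -0.09), with the H2A.Z chaperone ANP32E at -1.02 (adjusted p = 0.000141), the H3-H4 chaperone ASF1A at -0.79 (adjusted p = 0.00736) and the FACT subunit SUPT16H at 0.48 (adjusted p = 0.0144). Of 9 measured genes listed here as replication-independent variants, only H2AX was called, and it rose by 0.50 (adjusted p = 0.0114). Of 35 measured genes of G2/M and mitosis, 1 rose and 27 fell with apigenin (median -0.76), and the mean over the list was 6.42 to 6.55 in the apigenin arrays and 7.26 to 7.46 in the untreated arrays. The kinase PLK1 fell by 2.14 on the log2 scale (adjusted p = 1.05e-06). With TNFα against untreated cells these lists held 0 calls except G2/M and mitosis, where 3 of 35 fell. For TNFα, 0.997% of all genes were called (0.219% lower). None of the lists held a call in the combination against apigenin, where 0.209% of all genes were called. The part of cell-cycle stage in the histone results was not tested.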

How the data were processed

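Total RNA of 12 MDA-MB-231 samples was hybridised to 1 Affymetrix whole-transcript array each. The deposited values are in log2 units, 1 for each probe set. Per the submitters' processing notes, Affymetrix Expression Console produced them; no version, algorithm or setting was stated. The values ran from 0.536 to 12.495 with 0 missing. Of 53617 probe sets, 23871 had 1 symbol in the platform table, 1842 had several and 27904 had none. Symbols were updated through the gene identifier. Probe sets at or above their array's 25th percentile on at least 3 arrays were kept. This left 20572 genes, each represented by its brightest probe set on average.

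A limma model (version 3.58.1, R 4.3.3; lmFit, contrasts.fit and eBayes) held the 4 group means of all 12 arrays, with 8 residual degrees of freedom. Calls in the 6 comparisons were made where the p adjusted by Benjamini-Hochberg over all genes was below 0.05, and all adjusted p-values come from limma. In a test on simulated data for apigenin against untreated cells (20572 genes), 82.0% of the genes with a simulated log2 difference of 1 were recovered and 100% of those with 2 (100 genes each), with 9 false calls of 191. The simulated noise was independent between arrays, with no shared effect of the replicate number. Far fewer genes were changed than were called in the data, so these rates may not hold for the data. Array number limits the precision, and a change near the lower end of the scale is understated.

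The members, lists and tests were chosen with earlier results of these data known. All histone genes called in a pairwise comparison are named, then the gene with the highest mean in each family, and up to 4 called genes of each other list. The alternatives were quantile normalisation, other filters on dim probe sets, the mean of a gene's probe sets, eBayes with trend and robust, the replicate number as a block, the snoRNA median as covariate, leaving out the arrays numbered 3, and leaving out each array. The fits with several-symbol probe sets and with each probe set of H2BC18 were added after seeing the data. ERBB2 and PECAM1 were not analysed here.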

Additional observations from a re-analysis of the deposited data

How the results depend on the processing

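Counts are of the 28 histone genes called by limma. An alternative fit can change the share of all genes called as well, and these shares are not given here. A change in the counts is therefore not read as particular to the histone genes. The replicate numbers were checked as pairs: correlations of same-numbered deviations ran from 0.02 to 0.46 over 18 pairs, all positive and 13 over 0.1. The 5 that were not were all pairs of arrays numbered 1, while pairs numbered 2 or 3 correlated at 0.20 to 0.46. Arrays numbered 2 correlated negatively with arrays numbered 3 of the other groups. Because of those 5, the main fit did not take the numbers to pair the samples, although all 3 pairs of apigenin and untreated arrays were over 0.1. Any shared effect of the replicate number was thus not removed in the main fit. Not every sample correlated best with its own number. With the replicate number as a block, 3 genes were called with TNFα against untreated cells (0 higher and 3 lower, against 0 without the block), 9 in the combination against TNFα (7 higher and 2 lower, against 4), 12 in the combination against untreated cells (7 higher and 5 lower, against 7) and 12 with apigenin against untreated cells (7 higher and 5 lower, against 8). In that fit H2BC14 was called with TNFα against untreated cells (adjusted p = 0.0391) and in the combination against TNFα (adjusted p = 0.022). With trend and robust eBayes, 1 gene was called lower with TNFα. Without the 4 arrays numbered 3, 2 were called in the combination against TNFα. Leaving out 1 array in turn gave 0 to 2 calls with TNFα, the highest without TNFα replicate 2. It gave 6 to 8 with apigenin, 3 to 6 in the combination against TNFα, 6 to 8 in the combination against untreated cells, and 0 in the combination against apigenin and in the interaction. With apigenin, leaving out untreated replicate 1 gave 6 higher and 1 lower, against 5 and 3 on all arrays. Of single-gene results under alternatives, 424 kept their side of the threshold, 32 lost the call and 4 gained it, and none changed direction with a call. The causes were not tested. The deposited values carry no detection call, so for histone genes near the 25th percentile a change may not have been detectable with 3 arrays per group.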

Other observations

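In the combination against untreated cells, 9 of 29 measured genes of histone mRNA transcription and 3′ end processing rose and 1 fell, where limma called 12.5% of all genes. UPF1, the helicase of RNA decay, rose by 1.35 on the log2 scale (SE 0.17, adjusted p = 0.000159), and CSTF3, a subunit of a cleavage factor shared with polyadenylation, rose by 1.24 (SE 0.20, adjusted p = 0.00112). ZNF473, a zinc finger protein of the U7 snRNP pathway that cuts histone pre-mRNA, rose by 0.95 (SE 0.24, adjusted p = 0.0192), and SLBP rose by 0.55 (SE 0.12, adjusted p = 0.00812). Of 9 genes listed here as replication-independent variants, H2AJ rose by 0.57 (SE 0.15, adjusted p = 0.0254) and the other 8 were not called.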
